A study of Mus musculus with 2 samples.

Results

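The genes described here encode the proteins of the actin, myosin and tubulin cytoskeleton of T cells. They are the protein-coding rows of the deposited read count table whose symbols name cytoplasmic actins, actin-related proteins, cofilins, profilins, thymosins, capping proteins, coronins, alpha-actinins, ezrin, moesin, radixin, vimentin, myosin heavy and light chains, unconventional myosins, and alpha, beta and gamma tubulins with the proteins of the gamma-tubulin complex. The matching used symbols only and no measured value, though the set was chosen with earlier results of these data known. The match gave 124 of the 35275 genes of the table, of which 22026 are protein-coding. RNA was measured in TEa cells, CD4 T cells from C57BL/6 mice whose transgenic receptor sees a peptide of I-E alpha, a class II chain that Balb/c mice make. In the library titled Effector, TEa cells had been transferred into wild-type C57BL/6 mice that carried a Balb/c skin graft. In the library titled Exhaust, they had been transferred into CB6F1 mice, which inherit the antigen from their Balb/c parent. The study set abundant against moderate antigen, and the recipient strain and the graft differ along with the amount of antigen, so these cannot be told apart. TEa cells were sorted from splenocytes, and the sort gate, the time after transfer, and the age and number of mice behind each library were not stated in the labels.

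T cells move and form synapses by rebuilding actin. The Arp2/3 complex starts branched filaments, cofilin cuts old ones, profilin and thymosin hold the pool of free actin, coronins act where branches are made and removed, and ezrin, radixin and moesin tie filaments to the plasma membrane. Non-muscle myosin contracts the filaments, single-headed class I myosins link them to membranes, and microtubules of alpha and beta tubulin grow from the gamma-tubulin complex and carry the secretory machinery towards the contact with the antigen-presenting cell.

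Several tubulin genes are so alike in their coding parts that reads can be shared between them, which bears on the tubulin values below. The last 60 coding bases of the beta tubulin genes Tubb5, Tubb2a and Tubb4b are shown with the stop codon. The C-terminal tails they encode are where tubulins differ most. These bases were read from GENCODE M21 transcripts. The measured Tubb6 is not shown, nor are Tubb2b and Tubb4b-ps1, which share most sequence with Tubb2a and Tubb4b. Capitals mark bases that differ from Tubb5 in an alignment of the coding sequences.
Tubb5: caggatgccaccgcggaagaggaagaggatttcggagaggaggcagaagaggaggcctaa
Tubb2a: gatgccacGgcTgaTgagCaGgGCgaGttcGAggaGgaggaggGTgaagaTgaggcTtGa
Tubb4b: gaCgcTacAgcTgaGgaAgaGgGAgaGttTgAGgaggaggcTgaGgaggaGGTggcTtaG
Tubb2a had 16 capitals in this stretch and Tubb4b had 20. Over the whole coding sequence Tuba1b was 98.3% and Tuba1c 97.1% identical to Tuba1a, whereas Tuba4a was 84.7% identical to it. Tubb2a and Tubb4b were 84.6% and 82.2% identical to Tubb5. Of all words of 50 bases in the transcripts of Tuba1b, 75.1% also occurred in another gene, against 75.5% for Tuba1a, 52.7% for Tuba1c, 49.6% for Tubb2a, 41.3% for Tubb4b and 0.0892% for Tubb5.

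The Effector library held 7844445 counted reads and the Exhaust library 8508129, with at least 1 read for 16051 and 15864 genes. There was 1 library per group, so every fold below compares these 2 libraries, no value has a replicate check and no p-value is given. The 95% intervals are exact Clopper-Pearson intervals of the counts and cover counting error only. Reads of a low-input library can include amplified copies, which these intervals do not cover. All 10 T cell markers were measured, 6 of them with a log2 ratio below 0. Cd4 had 9272 and 15463 reads, and the lower-called Trac and Thy1 had 22526 and 11561 and 835 and 372. Of 6 CD8 T and NK cell markers, Cd8a and Klre1 were at 0 reads throughout, which allows up to 3 reads per library, while Cd8b1 had 164 and 81, Klrd1 52 and 0, Klrb1c 36 and 229 and Ncr1 5 and 0. The B cell gene Ms4a1 was at 0 in both. Markers of erythroid cells summed to 114 reads in the Effector library and 15 in the Exhaust library over 6 genes, and those of myeloid cells to 166 and 207 reads over 8 genes. Immunoglobulin heavy chain Ighm had 7540 and 3851 reads. The part of other cell types in the values below was not tested. In bulk RNA, fewer cells of a type and less RNA per cell cannot be told apart.

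Cytoskeleton genes were among the most abundant transcripts of these T cells in both libraries. Together they took 392653 reads, or 5.01% of all reads (4.99 to 5.02%), in the Effector library and 374769 reads, or 4.40% (4.39 to 4.42%), in the Exhaust library. The 5 members with the most reads held 53.7% of the member reads in the Effector library and 53.8% in the Exhaust library. Actb, Tmsb4x, Coro1a and Msn were among these 5 in both libraries, with Actg1 as the other in the Effector library and Actr3 in the Exhaust library. Of the 124 members, 23 had no read in either library, 32 had 1 to 49 reads over both, and 69 had at least 50 reads and were counted as measured. Among those without a read were the skeletal muscle heavy chain genes Myh1, Myh2 and Myh4.

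Most cytoskeleton genes stood at like levels in the 2 libraries, and a minority of mostly less abundant ones differed by 2-fold or more. A measured gene was called when its ratio, after scaling the libraries by edgeR's trimmed mean of M-values, was at least 2-fold and its counting interval excluded equality. By this rule 4 members were higher in the Exhaust library (Myo1e, Coro2b, Myo1c and Tuba1b), against 6.62% of all 9999 measured genes. A further 8 were lower (Myo1f, Tubb2a, Myo6, Myl4, Actn1, Coro2a, Myo10 and Ezr), against 7.09% of all measured genes, and 57 were neither. The 12 called members are 17.4% of the 69, beside a background of 13.7% over all measured genes. The roles and lists below with no called gene hold few measured genes, so they are not thereby set apart from this background. Among members with at least 1000 reads over both libraries, 4 of 50 were called, or 8.0%, against 8.01% of all genes of that depth, so the well-covered members differed as often as other genes. Among measured members with fewer than 1000 reads, 8 of 19 were called, 2 higher and 6 lower, or 42.1%, against 17.6% of all genes in that range. The median log2 ratio of Exhaust over Effector was -0.17 over the 69 members and -0.0063 over all measured genes. It was below 0 for 46 of the 69 members, or 66.7%, and for 50.5% of all measured genes. Their summed reads were 1.14-fold lower in the Exhaust library (1.13 to 1.14), a difference under the 2-fold rule.

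**Figure D1:**
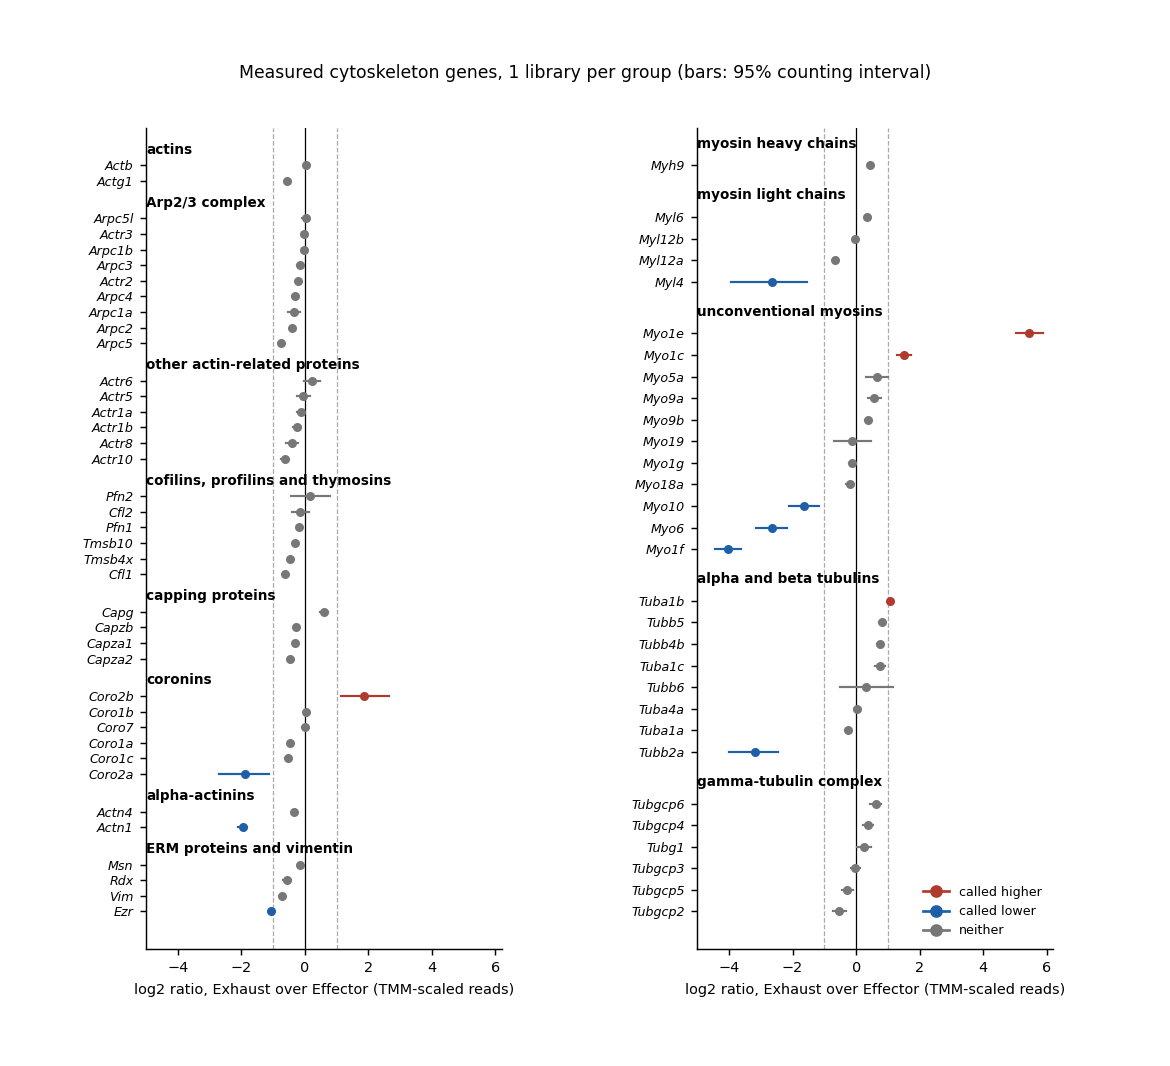
Log2 ratio of the Exhaust over the Effector library (x axis, scaled reads) for each of the 69 measured cytoskeleton genes, grouped by role; bars are 95% counting intervals and dashed lines mark 2-fold. The actins, Arp2/3 subunits, cofilins, profilins and thymosins lie between the dashed lines, while unconventional myosins run from a log2 ratio of -4.02 (Myo1f) to 5.45 (Myo1e).

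Neither of the 2 cytoplasmic actin genes reached a 2-fold difference. Actb, which encodes beta-actin, was the gene with the most reads of the whole table in both libraries, with 90571 in the Effector library and 99903 in the Exhaust library (log2 ratio 0.02, ratio 1.02, 1.01 to 1.03). Actg1, which encodes gamma-actin, had 20389 and 15025 reads (log2 ratio -0.56, 1.47-fold lower, 1.44 to 1.504). Both libraries thus had like Actb levels, and the Actg1 value of the Exhaust library lay below that of the Effector library without reaching 2-fold. Of the reads of the pair, Actg1 took 18.4% (18.1 to 18.6%) in the Effector library and 13.1% (12.9 to 13.3%) in the Exhaust library. Of the 50-base words of Actg1, 37.4% recur in other genes, most of them in Gm12715.

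Of the 10 genes for subunits of the Arp2/3 complex, 9 were measured, each with values within 2-fold in the 2 libraries. None was called, beside 8.01% of all genes with at least 1000 reads, and 9 genes are too few to set the complex apart from that share. The other, Actr3b, had 4 and 2 reads. Actr3, the Arp3 subunit, had 18323 and 19372 reads (log2 ratio -0.04), and its partner Actr2, the Arp2 subunit, had 4113 and 3806 (log2 ratio -0.23). Arpc2, a core subunit, had 9112 and 7490 reads (log2 ratio -0.40). The 2 alternative ARPC5 subunits stood apart from each other. Arpc5 had 9050 reads in the Effector library and 5841 in the Exhaust library (1.68-fold lower, 1.63 to 1.74), whereas Arpc5l had 1421 and 1566 (log2 ratio 0.02). Arpc5l therefore took 13.6% (12.9 to 14.2%) of the reads of the pair in the Effector library and 21.1% (20.2 to 22.1%) in the Exhaust library. For the alternative ARPC1 subunits the share moved less, with Arpc1b at 93.6% and 94.8% of the reads of Arpc1a and Arpc1b. Of the 50-base words of Actr3 and Arpc1b, 26.3% and 24.3% recur in other genes. The median log2 ratio of the 9 subunits was -0.23 and 8 of them were below 0. Among the 6 other actin-related proteins, which serve in dynactin and in chromatin remodelling, none was called. The median was -0.20, and Actr10, a dynactin subunit, was the lowest, with 1227 and 860 reads (1.55-fold lower, 1.42 to 1.69). The other dynactin genes Actr1a and Actr1b had log2 ratios of -0.14 and -0.25. Actr8, of a chromatin remodelling complex, had 577 and 473 reads and shares 141 exon bases with Il17rb on the other strand, a gene with 72 and 1802 reads.

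The genes for filament turnover and for the free actin pool were abundant, and none of the 6 measured members of 12 was called. Tmsb4x, which encodes the actin-sequestering peptide thymosin beta-4, had 45522 and 35434 reads (log2 ratio -0.48, 1.39-fold lower, 1.37 to 1.41). Scaled by length (TPM, in which the genes of each library sum to the same total), it stood at 14742 TPM in the Effector library, the 5th highest of all genes, and at 11427 TPM in the Exhaust library, the 4th highest. Cfl1, which encodes cofilin, had 13667 and 9546 reads (1.55-fold lower, 1.51 to 1.59). Pfn1, which encodes profilin, had 19702 and 18851 reads and a log2 ratio of -0.18. In Tmsb4x and Cfl1 the Effector library was the higher one, by less than 2-fold. The summed reads of the 6 genes were 1.34-fold lower in the Exhaust library (1.32 to 1.35), and 5 of the 6 had a log2 ratio below 0. Of the 4 measured capping proteins of 5, which close filament ends, none was called. Capza1, Capza2 and Capzb, the subunits of the barbed-end capping protein, had log2 ratios of -0.31, -0.48 and -0.29. Of the 50-base words of Capza1, 64.5% recur in other genes, most of them in Gm3608. Capg, which encodes a gelsolin-related capping protein, had 822 and 1343 reads (log2 ratio 0.59, ratio 1.51, 1.38 to 1.64).

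**Figure D2:**
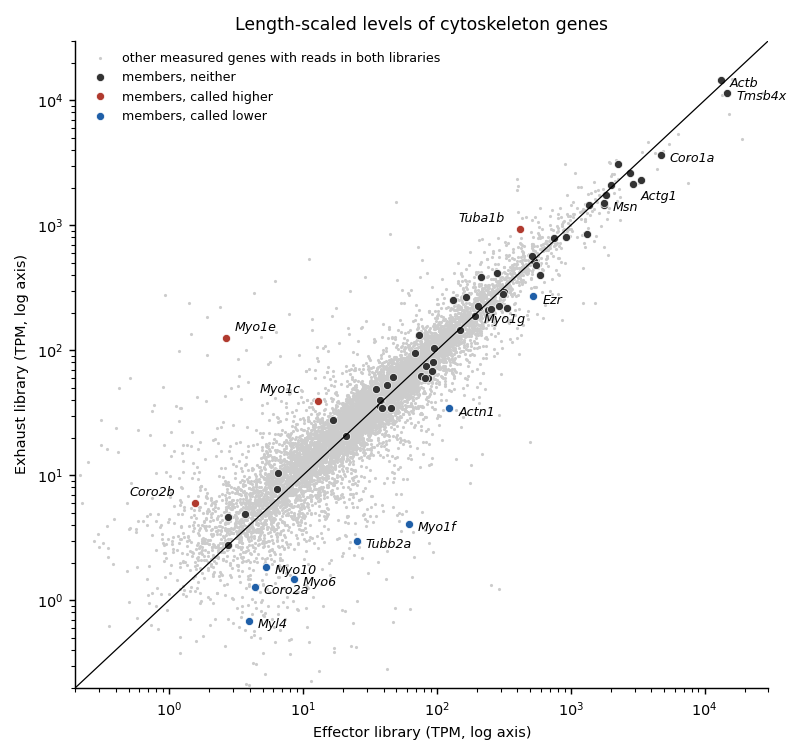
Length-scaled level (TPM, log axes) of each gene in the Effector (x axis) and Exhaust library (y axis), for measured genes with reads in both; cytoskeleton genes are large dots and the line marks equal TPM. Actb (13199 and 14498 TPM) and Tmsb4x sit near the line at the top, while 6 of the 8 members called lower lie under 100 TPM in the Effector library.

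Positions below are those of the deposited table, on build mm10. Among coronins, the major leukocyte coronin differed by less than 2-fold, and the 2 rarely transcribed type II genes were called in opposite directions. Coro1a had 29469 and 22809 reads (log2 ratio -0.49, 1.40-fold lower, 1.38 to 1.43) and took 77.8% of coronin reads in the Effector library and 72.6% in the Exhaust library. Coro2b (ENSMUSG00000041729, chr9:62419492-62537044) had 20 reads in the Effector library and 78 in the Exhaust library, and was 3.59-fold higher in the latter (2.18 to 6.204). Coro2a (ENSMUSG00000028337, chr4:46536937-46602202) had 65 and 19 reads and was 3.71-fold lower (2.20 to 6.55). In TPM both were low in both libraries, at 1.55 and 6.02 for Coro2b and at 4.38 and 1.27 for Coro2a. Coro1b, Coro7 and Coro1c had log2 ratios of 0.03, -0.01 and -0.53. Coro1b overlaps Ptprcap by 432 exon bases on the same strand, so its 3473 and 3838 reads may include reads of that gene.

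Alpha-actinins, which cross-link filaments, and ezrin, which links them to the membrane, included the 2 best-covered members that were lower. Actn1 (ENSMUSG00000015143, chr12:80167542-80260371) had 1657 reads in the Effector library and 460 in the Exhaust library, and was 3.91-fold lower in the latter (3.52 to 4.34). Its paralogue Actn4 had 3499 and 2976 reads and a log2 ratio of -0.35. The share of Actn1 in the reads of the family thereby went from 31.9% (30.6 to 33.2%) in the Effector library to 13.4% (12.3 to 14.6%) in the Exhaust library. The muscle gene Actn2 had 40 reads in the Effector library and 0 in the Exhaust library, where up to 3 reads are allowed, and at 40 reads it was under the minimum of 50. Of 8 stromal, smooth muscle and endothelial markers, Acta2 had 44 and 2 reads and Tagln 29 and 29, Col1a2 and Cdh5 had 0 in both, and the whole list summed to 2174 and 3239 reads, most of them in Pecam1 (2093 and 3198). Their part in the Actn2 value was not tested. Ezr, which encodes ezrin (ENSMUSG00000052397, chr17:6738041-6782784), had 5958 and 3063 reads and was 2.11-fold lower in the Exhaust library (2.02 to 2.21). Msn, which encodes moesin and is the main gene of this family in T cells, had 25020 and 24145 reads (log2 ratio -0.17). Rdx, which encodes radixin, had 1331 and 981 reads (log2 ratio -0.56). Of ezrin, radixin and moesin reads, Ezr took 18.4% (18.0 to 18.9%) in the Effector library and 10.9% (10.5 to 11.2%) in the Exhaust library, and Msn 77.4% and 85.7%. Vim, which encodes the intermediate filament protein vimentin, had 2636 and 1723 reads (1.66-fold lower, 1.56 to 1.76) and was not called.

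The conventional myosin motor of these cells was non-muscle myosin IIA, and its genes were within 2-fold. Myh9, its heavy chain, was the only measured gene among 14 heavy chains, with 7524 and 10996 reads (ratio 1.35, 1.31 to 1.39). Myh10, the heavy chain of myosin IIB, had 14 and 6 reads. The essential light chain gene Myl6 had 5403 and 7373 reads (ratio 1.26, 1.21 to 1.30). The 2 regulatory light chain genes differed from each other, with 6089 and 6500 reads for Myl12b (log2 ratio -0.02) and 4069 and 2794 for Myl12a (1.58-fold lower, 1.51 to 1.66). Myl12a took 40.1% of the reads of the pair (39.1 to 41.0%) in the Effector library and 30.1% in the Exhaust library (29.1 to 31.0%). The 2 genes are neighbours on chromosome 17 and do not overlap each other. Another GENCODE M21 entry named Myl12b, without counts in the deposited table, lies on the same strand. It shares 462 exon bases with Myl12a and 739 with the measured Myl12b. Of the 50-base words of Myl12a, 21.1% recur, so the split of reads between the 2 genes is uncertain. Myl4, an essential light chain gene known from the heart atrium (ENSMUSG00000061086, chr11:104550663-104595753), had 46 reads in the Effector library and 8 in the Exhaust library, and was 6.24-fold lower (2.92 to 15.3). Of the 11 light chain genes 4 were measured, and Myl6b, under the minimum, had 7 and 13 reads.

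The unconventional myosins held the largest ratios of the whole set, and 5 of the 11 measured genes of 25 were called, 2 higher and 3 lower, or 45.5% beside 13.7% of all measured genes and 17.6% of those with fewer than 1000 reads. Myo1e, a long-tailed class I myosin that links branched actin to membranes (ENSMUSG00000032220, chr9:70207350-70400067), had 47 reads in the Effector library and 2230 in the Exhaust library. It was 43.7-fold higher in the Exhaust library (32.8 to 59.7), and its level went from 2.66 to 126 TPM. Myo1f, its closest relative and a myosin known from leukocytes (ENSMUSG00000024300, chr17:33555719-33607764), had 840 reads in the Effector library and 56 in the Exhaust library. It was 16.3-fold lower (12.4 to 21.7), and its level went from 61.5 to 4.09 TPM. The 2 long-tailed class I myosins were thus each found mainly in 1 library, and in opposite ones. Neither gene shared a 50-base word with any other gene in GENCODE M21. Myo1f is also known from myeloid cells, and markers of these were uneven between the libraries. The neutrophil genes S100a8 and S100a9 had 30 and 32 reads in the Effector library against 1 and 2 in the Exhaust library, the monocyte gene Lyz2 had 37 and 10, and Itgam had 22 and 183. The summed level of the 8 myeloid markers was 54.3 TPM in the Effector library and 16.2 TPM in the Exhaust library, no marker was at 0 in both, and 1 of the 8 was measured. The part of such cells in the Myo1f value was not tested.

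Myo1c, a short-tailed class I myosin that acts in membrane tension and vesicle fusion (ENSMUSG00000017774, chr11:75650504-75673910), had 217 and 671 reads and was 2.85-fold higher in the Exhaust library (2.44 to 3.34). Myo1g, the class I myosin typical of blood cells, had 3255 and 3195 reads (log2 ratio -0.14). Class I myosins together had 4370 reads in the Effector library and 6173 in the Exhaust library (ratio 1.30, 1.25 to 1.35), so the make-up of the class moved far more than its sum. Myo1g took 74.5% of class I reads (73.2 to 75.8%) in the Effector library and 51.8% in the Exhaust library (50.5 to 53.0%). Myo1f took 19.2% (18.1 to 20.4%) and then 0.907% (0.686 to 1.18%), whereas Myo1e took 1.08% (0.791 to 1.43%) and then 36.1% (34.9 to 37.3%). Scaled by length, Myo1e made up 0.987% of class I TPM in the Effector library and 35.1% in the Exhaust library, and Myo1f 22.8% and 1.14%. Outside class I, Myo6, the motor that walks towards the minus end of filaments (ENSMUSG00000033577, chr9:80165031-80311729), had 242 and 42 reads and was 6.25-fold lower in the Exhaust library (4.49 to 8.90). Myo10, a motor of filopodial tips (ENSMUSG00000022272, chr15:25622525-25813673), had 154 and 54 reads and was 3.09-fold lower (2.26 to 4.30). Myo9b, a class IX myosin, had 1798 and 2504 reads (log2 ratio 0.36). Below the minimum, the deafness gene Myo7a had 19 and 17 reads and Myo1h had 7 and 11.

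**Figure D3:**
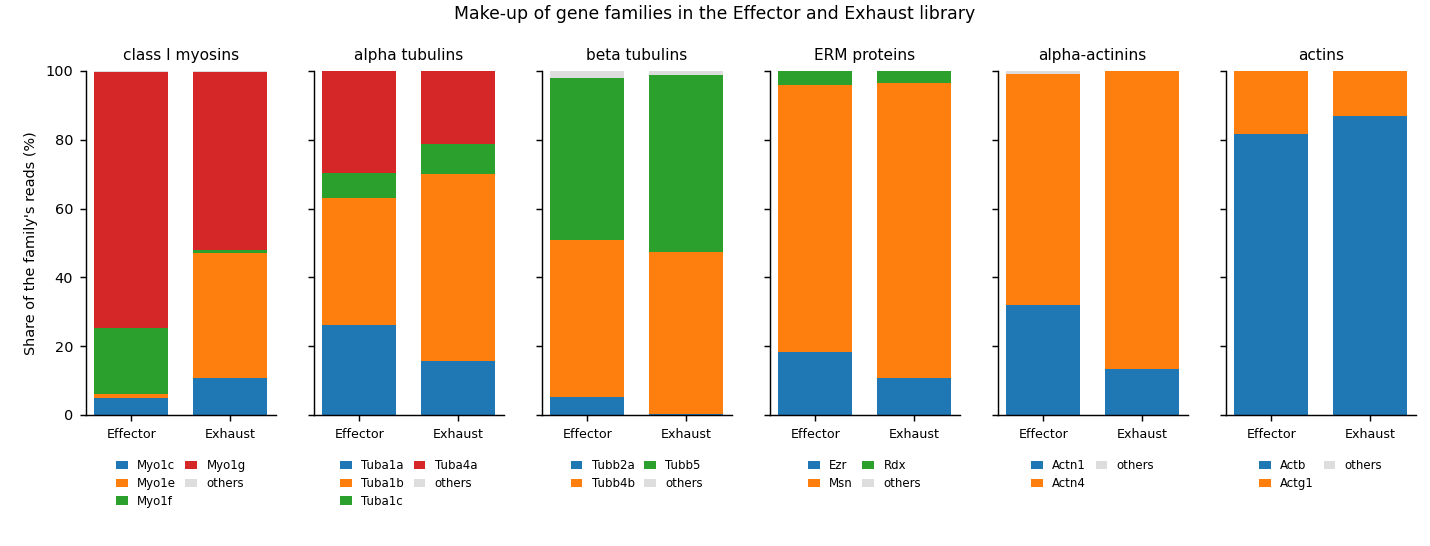
Share of the reads of 6 gene families (y axis, percent) taken by each member in the Effector and Exhaust libraries, with colours naming the members under each panel. In the class I myosins, Myo1f fills 19.2% of the Effector bar and 0.907% of the Exhaust bar, and Myo1e 1.08% and 36.1%.

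Alpha and beta tubulins had the highest median log2 ratio of all roles, at 0.52 over the 8 measured genes of 17, and 6 of the 8 were above 0. Tuba1b (ENSMUSG00000023004, chr15:98931425-98934565) had 2608 reads in the Effector library and 5876 in the Exhaust library, and was 2.08-fold higher in the latter (1.98 to 2.18), close to the 2-fold limit. Tuba1c and the beta tubulins Tubb5 and Tubb4b did not reach it. Tuba1c had 524 and 947 reads (log2 ratio 0.74), Tubb5 had 1259 and 2413 (log2 ratio 0.82), and Tubb4b had 1216 and 2208 (log2 ratio 0.74). These 4 genes all had the higher value in the Exhaust library. Tuba1a, the neighbour of Tuba1b on chromosome 15, had 1849 and 1680 reads (log2 ratio -0.26), and Tuba4a had 2079 and 2297 (log2 ratio 0.03). Tuba4a overlaps Stk16 on the other strand by 1379 exon bases. Tuba1b and Tuba1a share 426 and 473 exon bases with Gm49450 on the same strand, a gene without counts in the deposited table. Tubb2a (ENSMUSG00000058672, chr13:34074301-34078008) went the other way, with 143 reads in the Effector library and 17 in the Exhaust library, 9.13-fold lower (5.50 to 16.1). Its near copy Tubb2b had 9 and 8 reads, and Tubb4b-ps1, a copy of Tubb4b, had 14 and 12.

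As a family, alpha tubulins had 7068 and 10806 reads (ratio 1.41, 1.37 to 1.45) and beta tubulins 2673 and 4696 (ratio 1.62, 1.54 to 1.70). These sums do not change with how reads were split between genes of a family, but reads shared with genes outside it, or dropped as shared, still bear on them. Tuba1b took 36.9% of alpha tubulin reads (35.8 to 38.0%) in the Effector library and 54.4% in the Exhaust library (53.4 to 55.3%). Tuba1a took 26.2% and then 15.5%, and Tuba4a 29.4% and then 21.3%. Tubb2a took 5.35% of beta tubulin reads (4.53 to 6.27%) and then 0.362% (0.211 to 0.579%). The other 2 main beta tubulins kept a like split, with Tubb5 at 47.1% and 51.4% and Tubb4b at 45.5% and 47.0%. Markers of dividing cells, whose spindles need tubulin, summed to 3396 reads in the Effector library and 3958 in the Exhaust library over 10 genes, and to 263 and 286 TPM. None of the 10 was called and their median log2 ratio was 0.04. It was above 0 for 6 and below 0 for 4 of them, from -0.64 (Aurkb) to 0.52 (Cdk1). The part of dividing cells in the tubulin values was not tested. Of the 6 measured genes of the gamma-tubulin complex, which seeds microtubules, none was called. Tubgcp6 was highest with 459 and 764 reads (log2 ratio 0.62) and Tubgcp2 lowest with 504 and 379 (log2 ratio -0.53), around a median of 0.11. Tubg1, the main gamma-tubulin, had 304 and 392 reads, and its copy Tubg2, under the minimum, had 22 and 13. Tubgcp4 had 535 and 752 reads (log2 ratio 0.37) and overlaps Trp53bp1 on the other strand by 2130 exon bases.

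With the limit set at 1.5-fold instead of 2-fold, 10 members were higher, against 13.6% of all measured genes, and 13 were lower, against 13.6%. The 10 included 4 tubulin genes (Tuba1b, Tuba1c, Tubb4b and Tubb5), 3 unconventional myosins (Myo1c, Myo1e and Myo5a), Capg, Coro2b and Tubgcp6. The 13 included the actin-turnover genes Cfl1 and Arpc5, the dynactin gene Actr10, the linker and filament genes Ezr, Vim and Actn1, and the light chains Myl12a and Myl4. At this limit, too, no alpha or beta tubulin except Tubb2a was among the lower genes.

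The bases around gene starts were searched for motifs because serum response factor, which actin itself regulates through its cofactors, is a well known regulator of cytoskeleton genes and binds CArG boxes. The 250 bases before the gene start are shown for Myo1e and Myo1f, the pair with the largest ratios in opposite directions. They come from RefSeq on build GRCm38.p6, at chr9:70207100-70207349 and chr17:33555457-33555706, both on the plus strand. Capitals mark matches to the CArG box and to CCAAT, which reads ATTGG where it lies on the other strand.
Myo1e: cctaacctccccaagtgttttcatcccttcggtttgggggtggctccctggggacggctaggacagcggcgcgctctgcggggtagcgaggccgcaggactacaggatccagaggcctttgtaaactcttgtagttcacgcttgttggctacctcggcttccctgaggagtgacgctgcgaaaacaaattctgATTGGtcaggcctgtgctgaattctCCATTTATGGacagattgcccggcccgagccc
Myo1f: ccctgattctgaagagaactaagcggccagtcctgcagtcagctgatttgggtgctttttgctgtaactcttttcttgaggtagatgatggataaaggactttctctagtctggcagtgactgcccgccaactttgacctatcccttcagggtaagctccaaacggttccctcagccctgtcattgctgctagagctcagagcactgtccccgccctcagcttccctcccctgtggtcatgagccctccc
The Myo1e window held a CArG box 32 bases before the start and an inverted CCAAT upstream of it, and the Myo1f window held none of the 4 motifs searched. The search covered both strands of windows from 250 bases before to 50 after each start, with 4 motifs. These were the CArG box, CCAAT, and the motifs of AP-1 (TGANTCA) and of NR4A factors (AAAGGTCA), both known from T cell activation, and no match of one overlapped a match of another in the Myo1e window. Windows were listed for 105 of the 124 members, 61 of them measured. No window was listed for Actb, so its start was not searched. A CArG box was found for 9 of the 105 members (8.57%) and 4 of the 61 measured ones (6.56%), beside 488 of 27025 genes overall (1.81%). The 4 measured genes were Actg1, Arpc4, Myl6 and Myo1e, and their boxes are shown in capitals with up to 10 bases on each side, at chr11:120348566-120348595 (minus strand), chr6:113377863-113377882 (plus), chr10:128493040-128493069 (minus) and chr9:70207308-70207337 (plus).
Actg1: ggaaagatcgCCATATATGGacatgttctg
Arpc4: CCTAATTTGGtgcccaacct
Myl6: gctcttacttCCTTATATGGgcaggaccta
Myo1e: gctgaattctCCATTTATGGacagattgcc
RefSeq lists 2 windows for Myl6, and its box lies in the one at an alternative start inside the gene, while the window at the start in the deposited table held no CArG box. The log2 ratios of these 4 genes were -0.56, -0.31, 0.33 and 5.45, so genes with a box in this window stood on both sides of 0. CCAAT was found for 23 of the 61 measured members (37.7%), beside 41.1% of all genes. The AP-1 motif was found for 4 of the 61 (6.56%; Actn4, Ezr, Myl12a and Myo1c), beside 8.97% of all genes, and the NR4A motif for 0 of the 61, beside 1.70%. A match describes the letters only, and no binding was measured. The gene of serum response factor itself, Srf, had 467 and 435 reads (log2 ratio -0.22), and its cofactor gene Mkl1 had 1279 and 1214 (log2 ratio -0.19). The cofactor gene Elk4 had 792 and 1694 reads (log2 ratio 0.98), and none of the 6 genes of this list was called.

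Regulators and partners of the cytoskeleton, in the 7 of 9 lists reported here, with 106 measured genes, held 3 higher and 8 lower genes, or 10.4% called against the background of 13.7%. Their median log2 ratio was -0.12, and 65 of the 106 were below 0. Of 22 genes that promote actin nucleation, only the adaptor gene Nck2 was called, with 660 and 341 reads (2.10-fold lower, 1.84 to 2.40).

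Genes that bind, bundle or cut filaments had the lowest median of the 7 lists, -0.36 over 31 measured genes, with 1 higher and 6 lower, or 22.6% called beside 13.7% of all measured genes. Pdlim4, a LIM protein that binds alpha-actinin, had 426 reads in the Effector library and 14 in the Exhaust library (33.0-fold lower, 19.5 to 60.9). Pdlim1 and Pdlim2 of the same list had log2 ratios of -0.38 and -0.69 and were not called. The scaffold gene Iqgap2 had 1123 and 146 reads (8.35-fold lower, 7.02 to 9.99). The filament-severing gene Gsn had 1011 and 424 reads (2.59-fold lower, 2.31 to 2.90), and the leukocyte actin-binding gene Lsp1 had 7721 and 3884 (2.16-fold lower, 2.07 to 2.24). Twf2 and Gmfg completed the 6, at 2.11-fold and 2.08-fold lower. Plek, which encodes pleckstrin, was the 1 higher gene, with 47 and 106 reads (2.08-fold, 1.46 to 2.997). Of 28 microtubule-associated genes, the dynein heavy chain gene Dync1h1 was higher, with 768 and 1900 reads (2.28-fold, 2.10 to 2.48), and Map7 was lower, with 229 and 107 (2.32-fold, 1.84 to 2.95). The nuclear lamina gene Lmna was higher, with 62 and 145 reads (2.16-fold, 1.59 to 2.95), and none of the 9 integrin linkers and 6 septins was called.

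**Figure D4:**
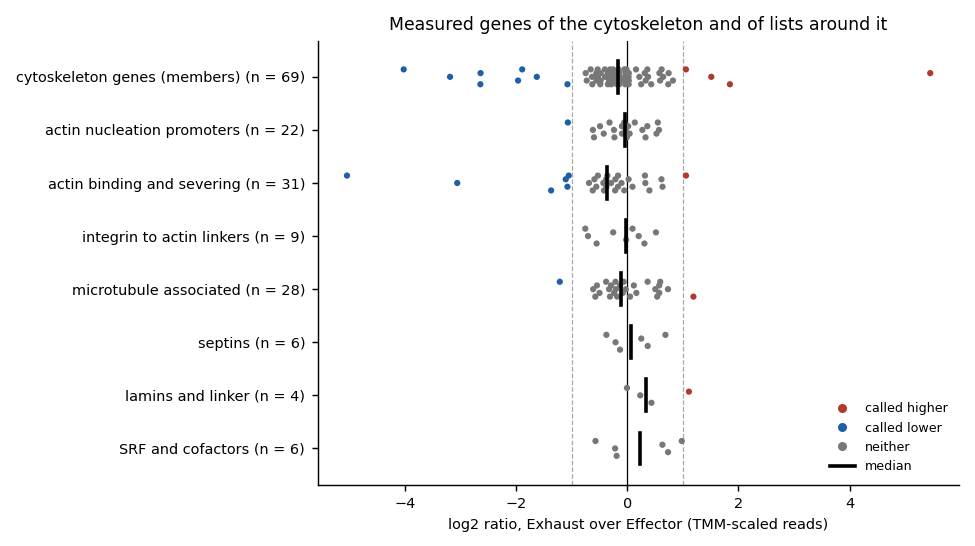
Log2 ratio of the Exhaust over the Effector library (x axis, scaled reads) of each measured gene, for the cytoskeleton genes (top row, 69 genes) and 7 lists of regulators and partners; black bars are medians and dashed lines mark 2-fold. Medians lie between -0.36 (actin binding and severing) and 0.33 (lamins and linker), and the cytoskeleton genes have the widest spread upwards, through Myo1e.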

How the data were processed

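RNA sequencing was analysed in 2 libraries, 1 per group. The deposited table holds raw read counts by gene for both libraries, with each gene's symbol, position, length and type, per the file headers. Reads were handled with STAR 2.6 on mm10, per the submitters' processing notes; the sources used here do not give the counter, its strand setting or its annotation. Both columns carry the sample titles, and 0 columns were left unused. Total counts were 7844445 and 8508129.

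Libraries were scaled with edgeR 4.0.16 (TMM, all genes with a read) in R 4.3.3, and ratios were taken as Exhaust over Effector, with exact 95% Clopper-Pearson intervals (scipy 1.17.1). A gene was measured from 50 reads summed over both, and a library at 0 was set to 3 reads. TPM used the deposited gene lengths, and compares levels between genes. Shared words and overlaps came from GENCODE M21 and promoters from RefSeq, matched by symbol.

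Members, roles, lists and tests were chosen with earlier results of these data known. Named were all called members, per role the 2 with the highest level and the 2 with the largest ratio, called list members (at most 4 per list) and members under the minimum with at least 10 reads. Other genes named, such as Pfn1, Actr2, Srf, Twf2, several tubulins and the markers, were chosen after their values were seen. Septins are stored under altered names in the table and were matched by Ensembl ID. Alternatives changed the scaling (total counts, upper quartile, DESeq2 1.42.0, TMM on protein-coding genes), the minimum, the fold, the depth, the floor and the summary. Some results, 2 of the 9 lists of regulators among them, are not reported here.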

Additional observations from a re-analysis of the deposited data

How the results depend on the processing

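The 12 called members kept their call and direction under each other scaling, with the deeper library thinned, with a prior count of 2 and at 1.5-fold. The median log2 ratio of the members was -0.14 with DESeq2 size factors and -0.18 with a minimum of 200 reads. The log2 ratio of their summed reads, which is not a median, was -0.18. With a minimum of 200 reads 5 members were lower, since the 4 called members with fewer reads were no longer counted, and 3 were higher. At 1.5-fold, 10 were higher and 13 lower. With the interval wholly beyond 2-fold, 3 were higher, without Tuba1b, and 8 lower. With no minimum, 4 were higher and 10 lower. Leaving out the 13 measured members of which over 20% of 50-base words recur in another gene, an alternative chosen after seeing the data, left 3 higher and 7 lower of 56 and a median of -0.18. With 1 library per group, depth limits only the counting intervals, and the spread between animals is not known.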
